A study of Mus musculus with 10 samples.

Results

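The thyroid hormone genes described here are 5 genes that act at successive steps inside or at the border of a brain cell: Slco1c1 (uptake), Dio2 (activation), Thra and Thrb (nuclear receptors) and Crym (binding in the cytosol). They were found in the deposited table by their gene symbols, and all 5 are among its 18464 genes and passed the filter on low counts. PolyA RNA was sequenced from ventral midbrain, taken as the ventral tegmental area with the substantia nigra pars compacta, of untreated (naive) Aldh1l1-NuTRAP mice. In this strain the Aldh1l1 promoter, active mainly in astrocytes, selects the cells whose ribosomes carry a tag. Translating ribosome affinity purification (TRAP) then recovers tagged ribosomes with their RNA. All 10 libraries come from mice with that transgenic background, and no group without it is part of the comparison. The 5 input libraries hold RNA of all cell types of the tissue, and the 5 astrocyte fraction libraries hold the purified RNA. Each of the title numbers 88, 92, 976, 981 and 982 is shared by 1 input and 1 fraction library. The labels used here state neither age nor sex, nor whether a number stands for 1 animal, and p-values therefore measure the spread between these libraries. Levels are depth-scaled counts (CPM) on a TMM-scaled library size, and n = 5 libraries a group throughout.

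Thyroid hormone reaches the brain mainly as the prohormone thyroxine (T4), which needs membrane transporters to cross the blood-brain barrier and cell membranes. In astrocytes type 2 deiodinase removes an outer-ring iodine from T4 and gives the active hormone T3, which can then pass to neurons and other cells. T3 binds nuclear receptors that sit on DNA mostly as heterodimers with retinoid X receptors and exchange corepressors for coactivators when the hormone is bound.

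Total expected counts were between 21812193 and 30878894 in the input and between 24479136 and 26924406 in 4 fraction libraries, but 3845554 in fraction 92. A count of 0 allows up to 0.880 CPM in fraction 92 and up to 0.136 CPM in any other library. This is 3 counts on the TMM-scaled library size, not on the total, and covers counting error only. The labelled cell type was checked on its markers. All 12 astrocyte markers tested were called higher in the fraction, with a summed level of 5193 to 5650 CPM in the input and 28980 to 42600 CPM in the fraction. Of the lists for other cells, 10 of 10 neuron, 8 of 8 mature oligodendrocyte, 4 of 4 oligodendrocyte precursor and 8 of 8 microglia markers were called lower. Other lists were not lower throughout. Of 9 endothelial markers 4 were called lower and 0 higher, and of 6 pericyte and smooth muscle markers 5 lower and 1 higher. Of 4 ependymal markers 0 were called lower and 1 higher, and their sum was 16.4 to 65.2 CPM in the input and 41.0 to 138 CPM in the fraction. Both libraries of the numbers 976 and 982 stand apart by choroid plexus markers. The sum of the 5 tested markers was 3252 and 667 CPM in their input and 12540 and 2632 CPM in their fraction, against 14.3 to 22.2 CPM and 96.4 to 106 CPM in the other numbers. Of all 17672 genes tested, 70.6% were called, 33.1% higher and 37.5% lower in the fraction. Library totals in place of TMM moved the median log2 difference of all genes from -0.06 to -0.34 and the share of higher genes among those called from 46.9% to 34.0%.

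The promoters of the uptake, activation and receptor genes are shown first because these genes were higher in the fraction than in the input. RefSeq promoter entries (GRCm38.p6) matched 3 of the 5 genes, Dio2, Slco1c1 and Thrb, and each line gives the 250 bases before the RefSeq start, 5′ to 3′ on the gene's strand. These starts differ from the 5′ ends of the genes in the deposited table, by 600 bases for Dio2, 14 for Slco1c1 and 699 for Thrb, and the Thrb window lies inside the deposited span of the gene. Capitals mark matches, on either strand, to any of 3 motifs chosen after the sequences were seen: TGACGTCA (the cyclic AMP response element), AGGTCA (the receptor half-site) and TATAAA (the core element found near many starts).
Dio2, chr12:90739039-90739288, minus strand: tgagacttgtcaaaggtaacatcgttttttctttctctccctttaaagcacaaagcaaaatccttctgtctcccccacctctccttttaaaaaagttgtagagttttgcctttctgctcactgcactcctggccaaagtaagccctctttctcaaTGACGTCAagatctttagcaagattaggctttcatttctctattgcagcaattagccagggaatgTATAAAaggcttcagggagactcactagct
Slco1c1, chr6:141524104-141524353, plus strand: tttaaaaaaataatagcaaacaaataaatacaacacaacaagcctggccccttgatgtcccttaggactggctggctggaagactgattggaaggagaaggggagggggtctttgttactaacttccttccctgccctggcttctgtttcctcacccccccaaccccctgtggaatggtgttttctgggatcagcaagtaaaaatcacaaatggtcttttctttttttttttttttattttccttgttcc
Thrb, chr14:17660710-17660959, plus strand: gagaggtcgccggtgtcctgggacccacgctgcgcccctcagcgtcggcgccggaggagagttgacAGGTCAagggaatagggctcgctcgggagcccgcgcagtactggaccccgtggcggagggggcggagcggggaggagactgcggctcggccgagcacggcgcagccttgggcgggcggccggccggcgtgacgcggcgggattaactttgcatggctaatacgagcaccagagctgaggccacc
The Dio2 window holds TGACGTCA from 95 to 88 bases and TATAAA from 30 to 25 bases before the start. Of 32851 promoter windows of this length, 1.55% hold TGACGTCA, 12.4% hold TATAAA and 14.0% hold AGGTCA. In the first of 2 Thrb entries AGGTCA lies 184 to 179 bases before the start, and G and C make up 71.6% of its bases against 41.6% in the Dio2 window and 42.8% in the Slco1c1 window. The second Thrb entry, chr14:17981394-17981643, which is not printed, has 44.0% G and C and holds TATAAA 167 to 162 bases before its start, so the high content belongs to the first entry. None of the 3 motifs occurs in the Slco1c1 window, which says only that these letters are not in it. A match describes letters and does not show binding.

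Dio2 encodes a selenoprotein, as do the other deiodinase genes, and in these proteins the codon TGA is read as selenocysteine. On the single Dio2 transcript in GENCODE M21 (GRCm38) a script found such codons at codon 130, at chr12:90729823-90729825, and codon 263, at chr12:90729424-90729426. They are printed in capitals with 12 bases on each side, since the first is the residue of the catalytic centre, which makes the enzyme depend on the selenocysteine machinery described further down, and the second lies close to the end of the reading frame.
Dio2 codon 130: ggttcagccaccTGAccacctttcact
Dio2 codon 263: ttcagcaagagaTGAattctagattag

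Dio2, which encodes the enzyme that makes T3 from T4, was higher in the astrocyte fraction by more than any of the other 4 genes. Dio2 (ENSMUSG00000007682) lies at chr12:90724552-90738438 on the minus strand (mm10). In the order 88, 92, 976, 981, 982 its level was 21.6, 31.7, 33.4, 13.2 and 30.0 CPM in the input and 205, 322, 271, 157 and 312 CPM in the fraction. Every fraction library was above every input library, and number 981 was the lowest in both groups. The mean rose from 26.0 ± 8.47 to 253 ± 70.7 CPM (SD), a log2 difference of 3.28 ± 0.32 (SE, adjusted p = 2.03e-06 with edgeR's quasi-likelihood test). Within the numbers the fold was 9.49, 10.2, 8.11, 12 and 10.4 in the same order, a narrower range than that of the levels themselves. Dio2 and the gene model Gm26512 on the other strand share 1.72% of the exon bases of Dio2. The fraction holds RNA recovered with tagged ribosomes, and the input holds RNA of the whole tissue. In this comparison the share of cell types, the RNA per cell and the binding to ribosomes cannot be told apart.

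**Figure D1:**
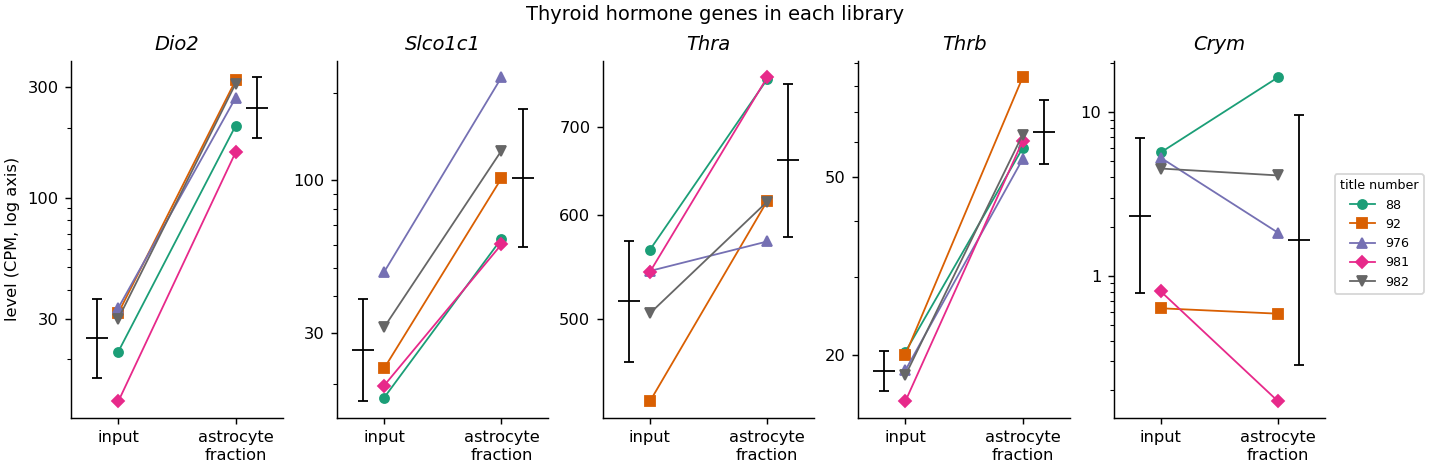
Level of each of the 5 genes (CPM, log axis) in the input and in the astrocyte fraction. Points are libraries, lines join libraries with the same title number, and black bars are the mean ± SD of log2 CPM over 5 libraries. Dio2, Slco1c1, Thra and Thrb show no overlap between the groups, while Crym overlaps and its lines run in both directions.

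Slco1c1, which encodes the organic anion transporter OATP1C1 that carries T4 into the brain, was also higher in the fraction. The gene (ENSMUSG00000030235) spans chr6:141524368-141570177 on the plus strand. In the same order its level was 17.9, 22.6, 48.5, 19.8 and 31.3 CPM in the input and 63.0, 102, 226, 60.3 and 126 CPM in the fraction. The groups did not overlap, and numbers 976 and 982 were the highest in both. The mean rose from 28.0 ± 12.5 to 115 ± 67.6 CPM, a log2 difference of 2.04 ± 0.44 (adjusted p = 0.00193). The fold within a number was 3.51, 4.49, 4.66, 3.05 and 4.04. The same 2 numbers hold the choroid plexus transcripts, in which Slco1c1 is known to be expressed. Without both libraries of 976 and 982 the log2 difference was 1.99 (adjusted p = 3.47e-05). In the numbers left, 88, 92 and 981, the choroid plexus sum was also higher in the fraction. It was 22.2, 14.3 and 18.9 CPM in their input and 104.6, 96.4 and 106.1 CPM in their fraction. Of the 5 choroid plexus markers tested 1 was called higher, 0 lower and 4 were not called (median log2 difference 2.12). The part of choroid plexus RNA in the Slco1c1 difference was not tested. Slco1c1 is also known from endothelial cells and from astrocytes of the mouse brain. Of 9 endothelial markers 0 were called higher, 4 were called lower and 5 were not called, and their summed level was 109.2 to 135.0 CPM in the input and 64.73 to 106.5 CPM in the fraction.

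**Figure D2:**
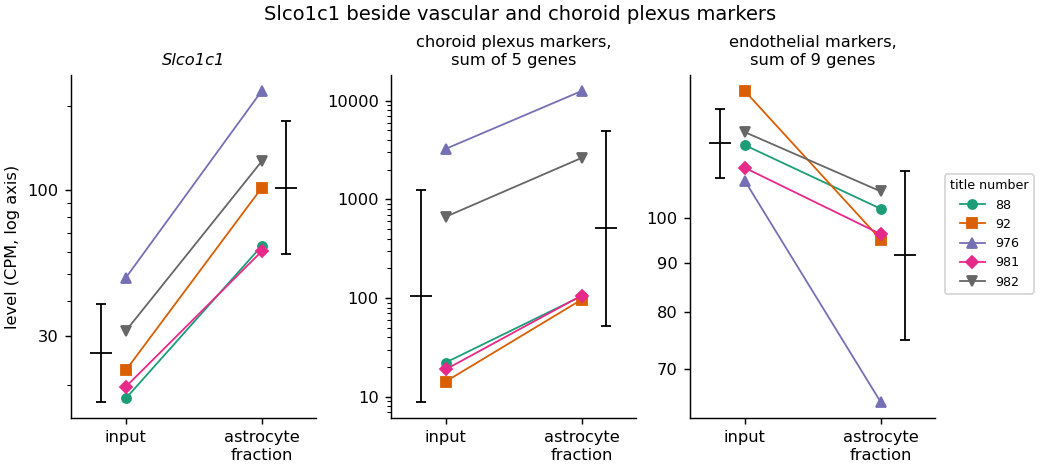
Level (CPM, log axis) of Slco1c1 beside the summed level of 5 choroid plexus and 9 endothelial markers. Lines join libraries of the same title number, and black bars are the mean ± SD of log2 CPM over 5 libraries. Numbers 976 and 982 are the highest for Slco1c1 and for the choroid plexus sum, and the endothelial sum falls in every number.

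Both hormone receptors were higher in the fraction, Thrb by more than Thra. Thra (ENSMUSG00000058756, chr11:98740638-98769006, plus strand) encodes the receptor isoform alpha, which dominates in brain, and also a splice variant that does not bind T3. Counts here are per gene and do not separate the 2 products. Thra stood at 564, 433, 544, 543 and 505 CPM in the input and at 761, 615, 573, 763 and 614 CPM in the fraction. The lowest fraction library, 976, was only just above the highest input library, 88, so the groups were separate by a small margin. The mean was 518 ± 52 and 665 ± 90.0 CPM, a log2 difference of 0.36 ± 0.11 (adjusted p = 0.00688). This call rests on the scaling: with library totals the log2 difference of Thra was 0.07 (adjusted p = 0.562). Without both libraries of 976 and 982 it was 0.58 (adjusted p = 0.00218). Within the numbers the Thra fold was lowest in 976, at 1.05, and between 1.22 and 1.42 in the other 4.

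Thrb (ENSMUSG00000021779, chr14:17660261-18038090, plus strand) encodes the receptor isoform beta. Its level was 20.4, 20.1, 18.5, 15.8 and 18.1 CPM in the input and 58.1, 83.6, 54.9, 60.2 and 62.3 CPM in the fraction. The input libraries lay close together, the groups did not overlap, and fraction 92 was the highest. The mean rose from 18.6 ± 1.83 to 63.8 ± 11.4 CPM, a log2 difference of 1.76 ± 0.12 (adjusted p = 2.94e-08). The fold within a number was 2.85, 4.16, 2.96, 3.81 and 3.45.

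The balance of the receptor transcripts therefore differed between the groups. Thrb counts were 3.61, 4.64, 3.41, 2.91 and 3.58% of Thra counts in the input libraries and 7.64, 13.6, 9.58, 7.90 and 10.1% in the fraction libraries. All 5 fraction values were above all 5 input values. The log2 ratio of Thrb to Thra was higher by 1.41 ± 0.18 in the fraction, which is 2.66-fold (two-sided exact permutation test p = 0.00794, the smallest that 5 against 5 libraries can give, and 0.0185 adjusted over 7 ratios, of which 6 are reported). Since both counts come from the same library, this ratio does not depend on the scaling. Paired by title number, an exact sign-flip permutation test gave p = 0.0625, the smallest that 5 pairs allow, so the paired test could not pass.

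Crym encodes mu-crystallin, a cytosolic protein that binds T3, and it was the single gene of the 5 with no call. Crym (ENSMUSG00000030905, chr7:120186380-120202111, minus strand) was at 5.67, 0.633, 5.27, 0.803 and 4.52 CPM in the input and at 16.3, 0.587, 1.83, 0.171 and 4.11 CPM in the fraction. In the input, numbers 88, 976 and 982 were high and 92 and 981 low, and the groups overlapped. The value of fraction 92 rests on 2 counts and that of fraction 981 on 4. The mean was 3.38 ± 2.46 and 4.61 ± 6.73 CPM, a log2 difference of 0.45 ± 1.29 (adjusted p = 0.669). Crym was higher in the fraction in 1 number only, 88, by 2.88-fold, and the other 4 folds were 0.927, 0.348, 0.213 and 0.908. The sign of the difference was not fixed. Without fraction 88 it was -0.94 (edgeR, adjusted p = 0.398), and with the title number as a block it was -0.36 (edgeR, adjusted p = 0.625). With all libraries kept, the authors' log2 values gave -0.52 (limma, adjusted p = 0.711). The SE of 1.29 is that of the difference of mean log2 CPM and not of the fitted 0.45.

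In all, 4 of the 5 genes were called higher and 0 lower, against 33.1% of all genes called higher. The groups did not overlap for the same 4 genes, each with the fraction higher. Over all genes tested, 58.3% had groups without overlap, 27.2% with the fraction higher and 31.1% with it lower. The median log2 difference of the 5 was 1.76, against -0.06 over all genes, and with library totals Dio2, Slco1c1 and Thrb were called higher and Thra was not.

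Set against Aldh1l1, the astrocyte gene whose promoter selects the tagged cells, the 5 genes separated into different patterns. Aldh1l1 itself was at 108, 99.0, 88.2, 105 and 98.1 CPM in the input and at 877, 773, 673, 850 and 899 CPM in the fraction. Its mean rose from 99.6 ± 7.65 to 814 ± 92.3 CPM, a log2 difference of 3.03 ± 0.09 (adjusted p = 7.08e-11), with no overlap. The exons of Aldh1l1 and Gm15756 on the other strand share 11% of the Aldh1l1 bases. For Dio2 the log2 ratio to Aldh1l1 was -2.01 ± 0.64 (SD) in the input and -1.73 ± 0.52 in the fraction. The difference of 0.29 ± 0.37 (SE) did not pass the two-sided exact permutation test (p = 0.452), which does not use the title numbers. That ratio was nonetheless higher in the fraction in 5 of 5 numbers. For it the paired exact sign-flip test gave p = 0.0625, the smallest possible. The ratio of Thrb to Aldh1l1 was lower in the fraction by 1.26 ± 0.15 on the log2 scale, with no overlap between the groups (exact permutation p = 0.00794, adjusted p = 0.0185). Thra showed the widest separation among the 4 called genes. Its counts fell from a mean of 522% of Aldh1l1 counts in the input to 81.9% in the fraction, a log2 difference of -2.67 ± 0.11 (exact permutation p = 0.00794, adjusted p = 0.0185). For Thrb and Thra to Aldh1l1 the paired exact sign-flip test gave p = 0.0625 each, again the smallest possible.

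For the 2 remaining ratios to Aldh1l1, the outcome of the unpaired test changed when a single library was left out. That of Slco1c1 was lower in the fraction in 5 of 5 numbers, by -1.06 ± 0.51 on the log2 scale, but the groups overlapped and it did not pass (exact permutation p = 0.0873, adjusted p = 0.120). Without fraction 976 the Slco1c1 difference was -1.42 (exact permutation, adjusted p = 0.0222). That of Crym was also lower in 5 of 5 numbers, by -3.44 ± 1.28, and missed the threshold after adjustment (exact permutation p = 0.0317, adjusted p = 0.0556). Without fraction 88 it was -4.21 (exact permutation, adjusted p = 0.0139). Paired by title number, the exact sign-flip test gave p = 0.0625 for both ratios, the smallest possible, so the paired test could not pass.

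**Figure D3:**
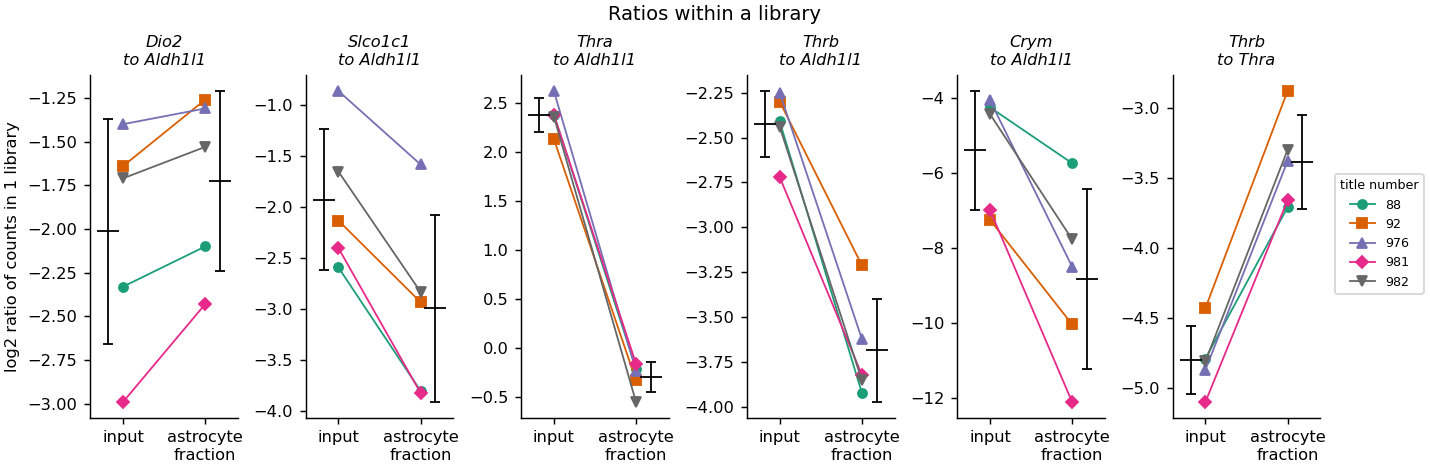
Within-library log2 ratios of counts for 6 gene pairs, with each panel on its own axis. Lines join libraries with the same title number, and black bars are the mean ± SD over 5 libraries. The ratio of Thrb to Thra rises in every number and those of Thra and Thrb to Aldh1l1 fall in every number without overlap. Dio2 to Aldh1l1 rises in every number, but its groups overlap widely.

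Divided by the length of their exons, the levels of the 5 genes had a different order in the 2 groups. In the input the mean was 112 ± 11.3 CPM per kb for Thra, 5.40 ± 2.41 for Slco1c1, 4.47 ± 1.46 for Dio2, 2.51 ± 0.247 for Thrb and 0.997 ± 0.727 for Crym. In the fraction it was 144 ± 19.5 CPM per kb for Thra, 43.6 ± 12.2 for Dio2, 22.3 ± 13 for Slco1c1, 8.62 ± 1.54 for Thrb and 1.36 ± 1.99 for Crym. Thra was thus the highest and Crym the lowest in both groups, without overlap of their ranges with the others. The neighbours Slco1c1 and Dio2 overlapped in both groups, and Dio2 and Thrb overlapped in the input (2.26 to 5.74 and 2.13 to 2.75 CPM per kb) but not in the fraction (27.1 to 55.4 and 7.41 to 11.3). The order was the same with the length of the longest transcript in place of all exon bases.

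Beyond Slco1c1, 10 other genes for transporters that carry iodothyronines are described here, of which 7 were in the table and tested. Calls were made for 6 of these, 2 higher and 4 lower, and the median log2 difference of the 7 was -0.60. Over all genes tested 33.1% were called higher and 37.5% lower, which is the background for this list and those that follow. The higher genes encode the 2 chains of the amino acid transporter LAT1, which also carries T3 and T4. Slc3a2, the heavy chain, rose from 102 ± 9.08 to 332 ± 42.9 CPM (log2 1.71 ± 0.10, adjusted p = 5.92e-09). Slc7a5, the light chain, rose from 51.7 ± 4.27 to 92.0 ± 14.3 CPM (log2 0.84 ± 0.12, adjusted p = 1.30e-05). Slco3a1, an organic anion transporter that takes T4, fell from 64.5 ± 4.81 to 10.6 ± 1.96 CPM. Slc7a8, which encodes LAT2, fell from 60.2 ± 15.3 to 18.1 ± 9.33 CPM and Slc16a10, which encodes MCT10, from 2.85 ± 0.36 to 1.11 ± 0.77 CPM.

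Of 8 listed genes of hormone breakdown or of type 2 deiodinase turnover, 6 were in the table, and Dio1 and Dio3, the other deiodinases, were not analysed here. Of these 6 genes 1 was called higher, 4 lower and 1 was not called (median log2 difference -1.21). Sult1a1, a sulfotransferase that can inactivate iodothyronines, rose from 4.53 ± 2.14 to 22.1 ± 10.4 CPM (log2 2.27 ± 0.40, adjusted p = 0.000166). Wsb1, the substrate receptor of a ubiquitin ligase that marks type 2 deiodinase for degradation, fell from 84.6 ± 24.5 to 7.32 ± 1.54 CPM (log2 -3.49 ± 0.22, adjusted p = 1.71e-08). Usp20 and Usp33, which encode deubiquitinases that can remove this mark, also fell. Usp20 went from 105 ± 4.90 to 46.8 ± 3.17 CPM and Usp33 from 126 ± 5.26 to 53.4 ± 8.18 CPM. The counts of Usp33 are uncertain, since 24.4% of its exon bases overlap gene models on the other strand.

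Of the 7 listed genes that insert selenocysteine, at codons such as those printed for Dio2, 2 were called higher, 1 lower and 4 not, and the median of the list was 0.02. Trnau1ap, which encodes a protein bound to the selenocysteine tRNA, rose by a log2 difference of 1.03 ± 0.11 (adjusted p = 3.64e-06). Sepsecs, the enzyme that completes selenocysteine on its tRNA, was at 0.42 ± 0.18 (adjusted p = 0.0329). That call was lost without input 92, 976 or 982 and without fraction 88 or 981, with adjusted p between 0.0594 and 0.0858. Pstk, the kinase of the same pathway, was at -0.70 ± 0.14 (adjusted p = 0.000277), but 58.8% of its exon bases overlap Ikzf5 on the other strand.

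The receptors' heterodimer partners differed from one another. Rxra rose from 51.7 ± 5.75 to 112 ± 17.1 CPM (log2 1.12 ± 0.12, adjusted p = 1.26e-06). Rxrb was not called, at 0.13 ± 0.11 (adjusted p = 0.274). Leaving out fraction 92 gave a Rxrb call at 0.21 (adjusted p = 0.00819), and library totals gave -0.16. Rxrg was called lower, at -0.91 ± 0.35 (adjusted p = 0.0219), a call lost without input 88 or 981 and without fraction 976 or 982 (adjusted p between 0.0501 and 0.0739).

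Of 5 corepressor genes 2 were called higher and 3 were not called, with a median of 0.04. Tbl1x, a subunit of the complex, was at 0.70 ± 0.06 (adjusted p = 1.95e-06) and its paralog Tbl1xr1 at 0.28 ± 0.07 (adjusted p = 0.00830), or -0.01 with library totals. The core scaffold Ncor1 was not called. Its mean went from 138 to 142 CPM, a log2 difference of 0.04 ± 0.12 (adjusted p = 0.756) that was called lower with library totals, at -0.25 (adjusted p = 0.0447). Of 7 coactivator genes 2 were called higher and 3 lower, with a median of -0.13. Ncoa1, the steroid receptor coactivator, rose from 110 to 215 CPM (log2 0.96 ± 0.13, adjusted p = 1.10e-05), and Ppargc1a was higher by 0.61 ± 0.08. Ncoa3 (-1.36 ± 0.21), the acetyltransferase gene Crebbp (-0.80 ± 0.10) and the Mediator subunit gene Med1 (-0.36 ± 0.13) were lower. The list of coregulators thus moved in both directions around the median of all genes.

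Nr1d1, which encodes the receptor REV-ERB alpha, lies beside Thra on the opposite strand. The 2 genes share exon bases at their 3′ ends, 5.70% of those of Thra and 8.55% of those of Nr1d1. Nr1d1 was at 71.1, 113, 76.7, 72.5 and 94.3 CPM in the input and at 170, 268, 172, 197 and 229 CPM in the fraction. The groups did not overlap, and number 92 was the highest in both, where Thra was the lowest of the input. The log2 difference was 1.27 ± 0.18 (adjusted p = 1.28e-05). Reads on the shared bases cannot be assigned to 1 of the genes without strand, and no source used here gives the strand setting of the counting.

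Of 15 genes known to respond to T3 in brain or liver, 13 were tested, of which 6 were called higher and 6 lower, and the median was -0.16. Thrsp, a regulator of fatty acid synthesis, rose from 10.7 ± 1.55 to 88.3 ± 6.81 CPM (log2 3.03 ± 0.11, adjusted p = 1.22e-10). Gpd2, the mitochondrial glycerophosphate dehydrogenase, was higher by 1.85 ± 0.10 and Me1, the cytosolic malic enzyme, by 1.69 ± 0.08. Hr, a nuclear corepressor, rose from 72.4 ± 13.2 to 227 ± 83.1 CPM (log2 1.65 ± 0.27), and the transcription factor gene Klf9 rose from 128 ± 8.46 to 344 ± 47.1 CPM (log2 1.43 ± 0.10). Hr and Klf9 were picked for naming after their values were seen. The lower genes included Mbp, the myelin basic protein gene, which fell from 2556 to 198 CPM (log2 -3.69 ± 0.16), and the neuronal genes Rasd2 (-2.17 ± 0.12) and Camk4 (-2.05 ± 0.25). These 3 are expressed mainly in oligodendrocytes or neurons, whose marker lists were lower too: summed mature oligodendrocyte markers were 4451 to 5483 CPM in the input and 842 to 1161 CPM in the fraction, and neuron markers 5691 to 6736 and 1092 to 1479 CPM. All 12 astrocyte markers were called higher, with a median log2 difference of 3.05. The part of cell makeup in the differences of the higher and of the lower genes was not tested.

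**Figure D4:**
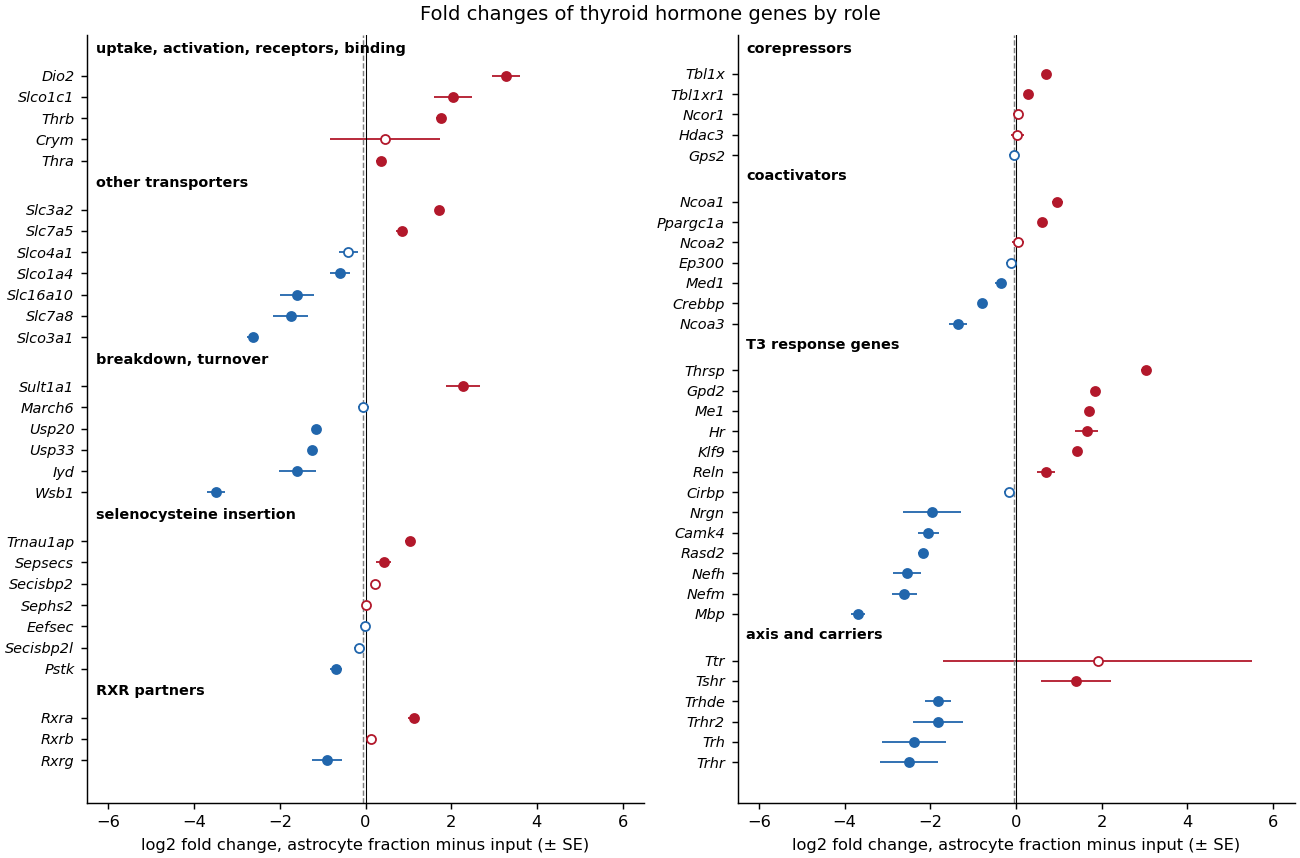
Log2 difference, astrocyte fraction minus input, of each tested gene in the thyroid hormone lists, ordered by role. Filled points were called at an adjusted p under 0.05 and open points were not, bars are the SE over 5 and 5 libraries, and the dashed line is the median of all genes at -0.06. Dio2, Slco1c1 and Thrb lie well to the right, while coregulators and selenocysteine genes lie on both sides of the dashed line.

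Of 10 genes of the hypothalamic-pituitary-thyroid axis and of hormone carriers, 6 were tested, with 1 called higher, 4 lower and 1 not called. The lower genes included the receptors of thyrotropin-releasing hormone, Trhr (-2.50 ± 0.67) and Trhr2 (-1.82 ± 0.58), and Trhde (-1.82 ± 0.30), the enzyme that degrades this peptide. Trhr was at 3.13 to 5.80 CPM in the input and at 0 to 1.54 CPM in the fraction. All deposited genes have at least 5 counts in every library of a group. Trhr met this rule only through the input, where it was higher, so the rule favoured its direction. Tshr, the thyrotropin receptor gene, had a mean of 0.223 and 0.818 CPM in the 2 groups (log2 1.39 ± 0.82, adjusted p = 0.0453). In its lowest input library it was at 0.0304 CPM, which is less than 3 counts. Tshr therefore met the rule of 5 counts only through the fraction, where it was higher, so the rule favoured this direction as well. The Tshr call was lost without input 88, 92, 976 or 981 and without fraction 88, 92 or 982 (adjusted p between 0.0549 and 0.0969). Ttr, the T4 carrier transthyretin that choroid plexus secretes, was at 1.39, 0.334, 2965, 2.70 and 604 CPM in the input and at 2.79, 2.86, 11040, 11.5 and 2312 CPM in the fraction. Numbers 976 and 982 set its mean in both groups. Its log2 difference was 1.90 ± 3.61 and was not called (adjusted p = 0.547). With the title number as a block Ttr was called at 1.85 (adjusted p = 3.37e-07), without 976 and 982 at 2.03 (adjusted p = 0.0427), and without fraction 976 it was -0.19 (adjusted p = 0.956).

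The genes whose centred log2 levels lay nearest to each of the others over the 10 libraries were named from 11386 candidates, by the mean absolute difference. For Dio2 these were Dmp1 (0.13), Mapkapk3 (0.21) and Hsd11b1 (0.25). For Slco1c1 they were Loxl1 (0.21), Crb2 (0.21) and Nt5dc2 (0.23), and for Thrb Mgme1 (0.08), Hsd3b7 (0.08) and Gpx7 (0.09). For Thra they were Nrf1 (0.06), Rpl23 (0.07) and Commd5 (0.07). Thra and Thrb thus had neighbours at a closer distance than Slco1c1 and Dio2, and those named for Crym, Fmod (0.81) and Aebp1 (0.87), were the most distant.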

How the data were processed

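The authors deposited 1 table with, for each library, expected counts (estimated reads) per gene, not scaled, and normalized log2 values centred on the input. The files name the build mm10, and CASAVA 1.8, DESeq and mm10 appear in the submitters' processing notes without a role. No source used here gives the aligner, counting tool or strand setting, which makes counts of overlapping genes uncertain. Per the labels' protocols, 25 ng of RNA went into each library (NEB Ultra II). All 18464 genes have at least 5 counts in every library of 1 or both groups, so genes below that were not analysed here.

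Expected counts were rounded and tested with edgeR 4.0.16 (R 4.3.3), with TMM scaling, filterByExpr at a minimum count of 10 (17672 genes kept, 792 removed) and the robust quasi-likelihood test over all genes. A gene was called where its p, adjusted by Benjamini-Hochberg, was under 0.05. Log2 differences use a prior count of 2 (fraction minus input), and each SE is that of the difference of mean log2 CPM with 0.5 counts added. Ratios between genes are log2 ratios of counts with 0.5 added, tested by two-sided exact permutation and adjusted over the 7 ratios computed, of which 6 are reported. No replicates agreed within sampling noise. Libraries with the same title number deviated together (r of 0.177 to 0.464), but fraction 982 (r = 0.177) correlated more with the input of another number. Blocked values stand beside the results they change. Alternatives used DESeq2 1.42.0, limma 3.58.1, other scalings and filters, a block and left-out libraries. Exon overlaps and lengths come from GENCODE M21 and promoters from RefSeq, both on GRCm38. The scripts were tested on simulated data, for edgeR with 200 changed genes, as many up as down. Far more genes were called in these libraries, so the simulation does not test the choice of scaling.

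The 5 genes and all lists were chosen with earlier results of these data known. Named genes are the 5, Aldh1l1, Nr1d1, Ttr, up to 3 called genes per list and direction with the smallest adjusted p, some uncalled genes of short lists, and the nearest genes by level (up to 3). A few genes that these rules name, and 1 ratio, are not reported here, and the list counts leave them out. Ependymal markers (1 of 4 higher, 3 not called, median 0.15) and pericyte and smooth muscle markers (1 of 6 higher, 5 lower, median -1.61) were also read.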

Additional observations from a re-analysis of the deposited data

Results flagged for a closer look

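In 11 of 98 groups of 5 libraries, 1 library lay far from the other 4 by Dixon's test on CPM. For normally distributed values chance alone gives this in about 1 of 20 groups. CPM without logarithms need not be so distributed, so the 11 cannot be read as more than chance gives. Among the 5 genes, Thrb was at 83.6 CPM in fraction 92 against 54.9 to 62.2 CPM in the other fraction libraries, and Crym was at 16.3 CPM in fraction 88 against 0.171 to 4.11 CPM. Fraction 92 is the shallowest library.

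Number 976 stood out in both groups for the carrier gene Ttr, at 2965 CPM in the input (0.334 to 604 CPM elsewhere) and 11040 CPM in the fraction (2.79 to 2312 CPM).

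Input 92 stood out for Pstk at 21.8 CPM (17.0 to 18.3 CPM), Slc3a2 at 117 CPM (the others from 95.8 CPM, all lower) and Trnau1ap at 11.4 CPM (14.0 to 14.8 CPM). The remaining cases were Sult1a1 in input 88 at 8.28 CPM (3.16 to 4.07 CPM), Slc16a10 in fraction 92 at 2.45 CPM (0.513 to 0.997 CPM), Me1 in fraction 981 at 285 CPM (218 to 231 CPM) and Rasd2 in fraction 982 at 27.6 CPM (18.2 to 20.6 CPM).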

How the results depend on the processing

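Dio2, Slco1c1 and Thrb stayed called higher under every alternative run, and leaving out 1 library at a time gave log2 differences of 3.12 to 3.42, 1.71 to 2.33 and 1.67 to 1.87. Thra lay between 0.30 and 0.48 with 1 library left out and lost its call with library totals (0.07). Crym turned to -0.36 with the replicate block and -0.52 on the authors' log2 values, and ran from -0.94 to 0.77 with 1 library left out. Its mean is below 5 CPM, so the filter at 5 CPM gave no value for it. Library totals turned Ncor1 (-0.25), Rxrb (-0.16) and Tbl1xr1 (-0.01), and the 5 CPM filter turned Ncor1 (-0.05). With 1 library left out, Ncor1 ran from -0.03 to 0.12 and Ttr from -0.19 to 4.14. Ratios kept their direction. Sign-flip pairing (exact, smallest p 0.0625) gave Thra to Aldh1l1 -2.67, Thrb to Aldh1l1 -1.26 and Thrb to Thra 1.41. Without 976 and 982 (smallest exact p 0.1) they were -2.53, -1.17 and 1.36, so neither design could pass. With 1 library left out, Crym to Aldh1l1 ran from -4.21 to -2.62 and Slco1c1 to Aldh1l1 from -1.42 to -0.80. Selenocysteine genes called higher became 1 (library totals, 5 CPM, without 976 and 982, authors' log2 values) or 1 to 3 (1 library out), and lower 2 (library totals). Retinoid X receptor genes lower became 0 without 976 and 982 or 0 to 1 (1 library out), and higher 1 to 2. Corepressors became 1 higher and 2 lower with library totals. Axis genes higher became 0 (library totals, 5 CPM), 2 (block) or 0 to 1 (1 library out), and lower 1 (5 CPM). The 5 CPM filter leaves axis genes such as Tshr, Trhr and Trhr2 untested, since their means are below 5 CPM in both groups. The replicate block changed no other call among the named genes than those given with their genes. Causes were not tested. Depth limits values in fraction 92, where 1 count is a large step for Crym.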
